A study of Mus musculus with 10 samples.

Results

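The voltage-gated sodium channel subunits of the brain were followed as 7 genes in whole brains of newborn mice. They comprised 4 alpha genes (*Scn1a*, *Scn2a*, *Scn3a* and *Scn8a*) and 3 beta genes (*Scn2b*, *Scn3b* and *Scn4b*). The genes were chosen by name and not by a cut on their values, though with earlier results of these data known. All 7 were found by Ensembl identifier among the 18444 genes of the table and had a mean of at least 10, the minimum for testing. The libraries hold poly-A RNA of the whole brain at postnatal day 3 (P3), 1 library from each of 10 mice, all male and of the C57BL/6N strain. The 5 HT mice carried 1 edited and 1 intact allele of *Arid1b*, a DNA-binding subunit of the BAF chromatin remodeling complex, and the 5 WT mice carried only intact alleles. The edit, made in the germline with a CRISPR/Cas9 nickase and kept as 1 mouse line (em1Tcp), targets exon 5, is described as truncating the protein and is present in every cell. The mice of the study had heterozygous fathers and WT mothers. The labels do not give litters and name no treatment for either group. The comparison asks how the loss of 1 *Arid1b* allele alters transcripts of the neonatal brain, here those that encode the channels of the action potential.

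Each sodium channel is built around 1 large alpha subunit, which forms the pore, senses the membrane voltage and carries the rapid inward current of the action potential. Beta subunits are small membrane proteins with an immunoglobulin-like domain that tune the gating of the pore and its placement in the membrane. In rodent brain *Scn3a* is known as the embryonic and neonatal alpha gene, *Scn2a* as the early gene of excitatory axons, *Scn1a* as the later gene of inhibitory interneurons, and *Scn8a* as the later gene of mature axon initial segments and nodes. Among the beta genes, *Scn3b* is known for its early expression, whereas *Scn2b* and *Scn4b*, whose proteins bind the pore by a disulfide bond, are known for their rise with maturation.

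In GENCODE M21 (GRCm38), *Scn3a* (ENSMUSG00000057182, chr2:65457118-65567627, minus strand), *Scn2a* (ENSMUSG00000075318, chr2:65620771-65767447, plus strand) and *Scn1a* (ENSMUSG00000064329, chr2:66270778-66440840, minus strand) lie in a cluster, 53.1 kb and 503 kb apart. *Scn8a* (ENSMUSG00000023033, chr15:100869858-101045938, plus strand) is on another chromosome. All 3 beta genes lie on the plus strand of chromosome 9, *Scn3b* (ENSMUSG00000049281, chr9:40269217-40291618), *Scn2b* (ENSMUSG00000070304, chr9:45117782-45130070) and *Scn4b* (ENSMUSG00000046480, chr9:45138395-45154152), the last 2 of them 8.32 kb apart. The coding sequences of the clustered alpha genes were 81.6% to 83.6% identical in pairwise alignments, and each was 73.8% to 74.2% identical to that of *Scn8a*. Over the whole coding sequence, 1.64% of the read-length words of *Scn1a* occurred in another alpha member, 2.25% of those of *Scn2a*, 1.67% of those of *Scn3a* and none of those of *Scn8a*. Among the alpha members, the division of reads was therefore an estimate over only a small part of the coding sequence. Words shared with genes outside the members are not in these figures. Over all transcripts, 7.29% of the 31-base words of *Scn1a*, 9.16% of those of *Scn2a* and 9.57% of those of *Scn3a* occurred in some other gene, *Scn9a* among them.

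The sequences before the annotated starts of 5 members were given in the RefSeq promoter table (GRCm38.p6), and those of the alpha genes are shown here because their CpG content spans a wide range. Each window holds the 250 bases before a start, read 5′ to 3′ on the gene's strand, with CpG dinucleotides in capitals.
Scn1a, chr2:66440838-66441087 (minus strand): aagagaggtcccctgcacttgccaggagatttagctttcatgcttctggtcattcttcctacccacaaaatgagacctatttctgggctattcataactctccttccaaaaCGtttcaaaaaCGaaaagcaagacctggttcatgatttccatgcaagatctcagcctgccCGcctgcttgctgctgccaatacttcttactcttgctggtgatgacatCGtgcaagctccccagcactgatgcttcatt
Scn2a, upstream start, chr2:65620519-65620768 (plus strand): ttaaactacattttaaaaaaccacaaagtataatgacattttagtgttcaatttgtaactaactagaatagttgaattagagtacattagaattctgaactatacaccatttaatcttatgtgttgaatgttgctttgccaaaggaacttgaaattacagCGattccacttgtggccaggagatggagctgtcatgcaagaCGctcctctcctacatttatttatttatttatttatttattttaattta
Scn2a, downstream start, chr2:65668436-65668685 (plus strand): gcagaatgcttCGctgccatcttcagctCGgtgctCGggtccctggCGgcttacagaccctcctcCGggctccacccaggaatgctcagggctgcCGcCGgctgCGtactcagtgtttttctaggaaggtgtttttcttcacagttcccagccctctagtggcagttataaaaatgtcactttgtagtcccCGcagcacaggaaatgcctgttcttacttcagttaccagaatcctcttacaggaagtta
Scn8a, upstream start, chr15:100870395-100870644 (plus strand): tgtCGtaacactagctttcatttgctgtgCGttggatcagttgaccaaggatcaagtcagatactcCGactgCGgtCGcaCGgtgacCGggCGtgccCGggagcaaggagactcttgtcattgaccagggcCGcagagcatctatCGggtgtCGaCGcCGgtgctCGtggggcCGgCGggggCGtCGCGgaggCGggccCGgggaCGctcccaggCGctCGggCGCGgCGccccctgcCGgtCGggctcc
Scn8a, downstream start, chr15:100936021-100936270 (plus strand): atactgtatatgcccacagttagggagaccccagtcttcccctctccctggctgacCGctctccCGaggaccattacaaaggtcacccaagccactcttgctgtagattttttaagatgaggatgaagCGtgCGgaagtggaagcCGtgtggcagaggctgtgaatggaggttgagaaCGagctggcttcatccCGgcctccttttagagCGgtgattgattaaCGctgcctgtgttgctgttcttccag
The windows differed in CpG content, a property by which promoters are commonly divided. The upstream *Scn8a* window held 30 CpGs, more than 94.1% of the 32851 windows of the table, while the upstream *Scn2a* window held 2 and the *Scn1a* window 4, against a median of 6 over all windows. The downstream windows of *Scn2a* and *Scn8a* held 9 each. Among the beta members, the *Scn4b* window held 23 CpGs and that of *Scn2b* 1. A search of both strands found the TATA box letters TATAAA in 1 of the 7 member windows, that of the downstream *Scn2a* start (12.4% of all windows), and the CCAAT letters in the windows of *Scn1a* and *Scn4b* (33.8% of all windows). The GC box letters GGGCGG (32.7% of all windows) and the letters TTCAGCACC, the left part of the element bound by the repressor REST (0.301% of all windows), were in none of the 7. A match or its absence describes these letters in these windows only.

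By a rough estimate from the spacing of low values, the libraries held 25.1 M to 31.3 M reads each (M stands for 1000000). On that estimate a normalized read count of 1 corresponded to about 1 read. The values of the edited gene matched the labels. *Arid1b* had normalized read counts of 2372, 2230.1, 2253, 1505 and 2142 in HT 1 to HT 5 and 3386, 3155, 3597, 3429 and 3108 in WT 1 to WT 5, so that every HT library lay below every WT library. The log2 difference was -0.68 ± 0.11 (SE), which did not pass the adjusted threshold with all 10 libraries (limma adjusted p = 0.390) and did without the library HT 4 (-0.57 ± 0.050, limma adjusted p = 2.52e-04). That library stood apart from the other 9. Its limma array weight, a measure of how well a library follows its group, was 0.171, against 0.858 to 1.52 in the others, and its genes deviated with transcript length. The median log2 deviation from the mean of all libraries was 0.27 in the shortest decile of genes and -0.34 in the longest decile, where the other 9 libraries ranged from -0.051 to 0.12. Results are therefore given with and without HT 4.

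*Scn3b* and *Scn2a* were the leading transcripts of the 7 in the P3 brain, *Scn3a* was the next alpha gene and the 2 late beta genes were the lowest. Levels were compared between genes as normalized read counts per kb of the longest coding transcript. In WT, *Scn3b* reached 2015 ± 54.8 per kb (SD, n = 5), a level above that of 95.4% of 17008 genes. *Scn2a* followed with 941 ± 63.0 per kb and *Scn3a* with 505 ± 19.3 per kb, above 87.9% and 76.2% of genes. The genes of mature axons and interneurons were lower, with *Scn8a* at 411 ± 57.5 per kb and *Scn1a* at 193 ± 16.2 per kb. *Scn2b* stood at 164 ± 8.92 per kb, near the middle of all genes (48.5% were lower). *Scn4b*, a gene known from Purkinje and striatal neurons of the adult, had only 14.5 ± 3.17 per kb and exceeded 12.6% of genes.

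With these lengths, the order held in each of the 10 libraries for every pair of neighbors except *Scn1a* and *Scn2b*. These 2 genes were in the same order in 9 of 10 libraries, the exception being HT 4, and their WT ranges overlapped (176 to 214 per kb for *Scn1a* and 154 to 176 per kb for *Scn2b*), so their levels were not separated by the spread between mice. The steps between the other WT means were 2.14-fold from *Scn3b* to *Scn2a*, 1.86-fold to *Scn3a*, 1.23-fold to *Scn8a*, 2.13-fold to *Scn1a*, and 11.3-fold from *Scn2b* to *Scn4b*. The step from *Scn3a* to *Scn8a* depends on the length used. With the mean length of coding transcripts *Scn8a* lay above *Scn3a*, as given below. Further channel genes are named here outside the rule for genes. In WT, *Scn9a* had 128 per kb, above 43.0% of genes, while *Scn7a* had 5.16, *Scn11a* 3.93 and the sensory neuron gene *Scn10a* 2.00 per kb.

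Shares were taken of the sum of the alpha members, counted per kb, which leaves out *Scn9a*. *Scn2a* made up 45.96 ± 0.909% (mean ± SD of the 10 libraries), *Scn3a* 24.8 ± 0.844%, *Scn8a* 19.5 ± 1.44% and *Scn1a* 9.69 ± 0.729%. The early pair *Scn2a* and *Scn3a* thus outweighed the later pair in every library. Among the beta members, *Scn3b* took 91.9 ± 0.881%, *Scn2b* 7.46 ± 0.754% and *Scn4b* 0.681 ± 0.161%. The shares depend on the length given to each gene. With the mean length of its coding transcripts, *Scn8a*, which has 15 such transcripts and a mean of 4247 bases, rose to 31.2% and passed *Scn3a* at 22.8%, while *Scn2a* remained first at 37.8%. The plot of subunit shares by library shows the makeup in every mouse.

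**Figure D1:**
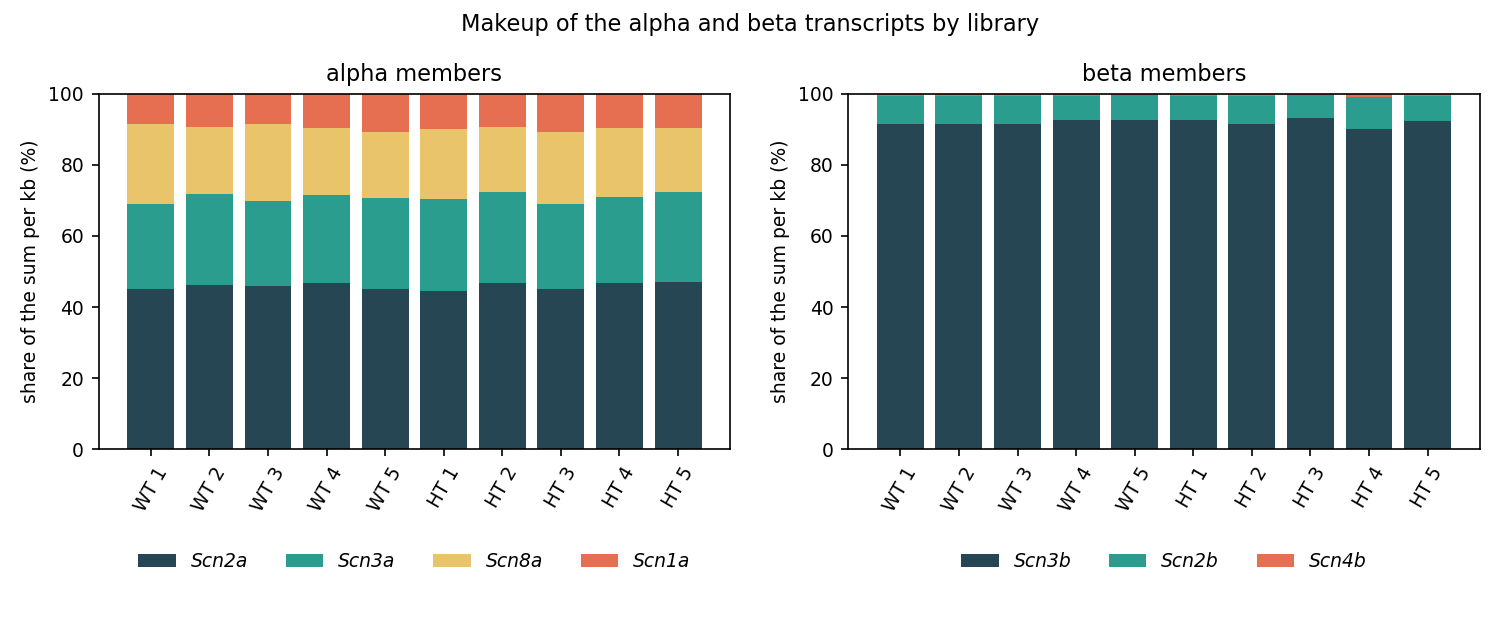
Share of each member in the sum of the alpha members (left) and of the beta members (right), in percent of normalized read counts per kb, for each library. *Scn2a* takes between 44.5% and 47.1% of the alpha sum in all 10 libraries and *Scn3b* between 90.0% and 93.1% of the beta sum.

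No difference of the makeup between genotypes was detected. The share of *Scn1a* in the alpha sum was 9.93 ± 0.535% in HT and 9.45 ± 0.876% in WT (exact permutation test, two-sided, p = 0.302, n = 5 each), that of *Scn8a* 19.1 ± 0.943% in HT and 20.0 ± 1.81% in WT (exact permutation test, two-sided, p = 0.365, n = 5 each), and the exact permutation p for the shares of the other 5 members lay between 0.619 and 0.992. Of the 7 shares compared, *Scn1a* had the smallest exact permutation p, before any adjustment. The alpha shares of HT 4, 46.7% for *Scn2a*, 24.2% for *Scn3a*, 19.3% for *Scn8a* and 9.80% for *Scn1a*, were all within the range of the other 9 libraries. Its beta shares were not. *Scn2b* at 9.04% and *Scn4b* at 0.9754% had their highest share of the 10 libraries there, and *Scn3b* at 90.0% its lowest.

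No difference between HT and WT was detected for any of the 7 subunit transcripts when all 10 libraries were used. The limma adjusted p was 1.00 for each member, 0 of 7 had an unadjusted limma p under 0.05, and the exact permutation p ranged from 0.603 to 0.984. Over all genes tested, 0 of 17020 passed the adjusted threshold (0.0%) and 3.41% had an unadjusted limma p under 0.05. The HT and WT libraries overlapped for each member, as they did for all but 0.629% of genes. Without HT 4 the 5 HT libraries become 4, and 4 members, *Scn1a*, *Scn2a*, *Scn3a* and *Scn3b*, had an unadjusted limma p under 0.05, all higher in HT. The adjusted p of each of these 4 was 0.446, so none passed, while 2 genes passed among all those tested (0.0118%). The background under the same condition was 8.4% of genes at an unadjusted p under 0.05, and 4.69% of genes at such a p and higher in HT. With array weights in place of leaving HT 4 out, *Scn1a* and *Scn3b* had an unadjusted limma p under 0.05 (2 of 7, beside 7.52% of genes). The choice to set HT 4 apart rests on its deviation over all genes, to which these long transcripts themselves belong. The plot of members by library gives the values.

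**Figure D2:**
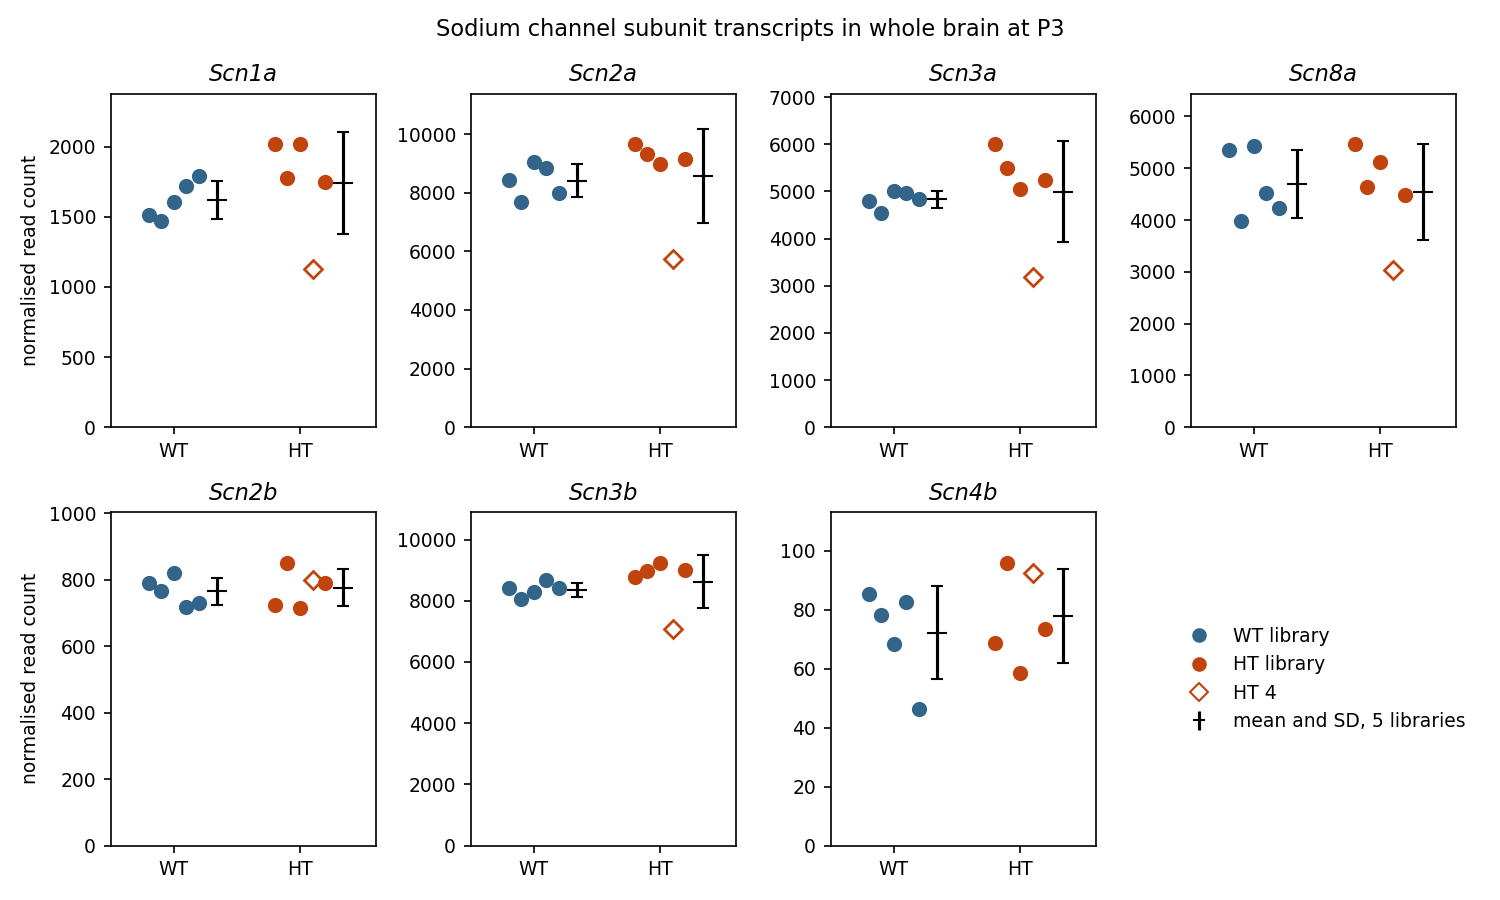
Normalized read counts of the 7 members (vertical axes, linear from 0) in WT and HT libraries, with the mean and SD of each group and HT 4 as an open diamond. HT 4 lies below every other library in the 4 alpha genes and in *Scn3b*, but within the range of the others in *Scn2b* and *Scn4b*.

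*Scn3a*, the alpha gene of the developing brain, is described first among the alpha genes. HT 1 to HT 5 had 5997, 5503, 5049, 3176 and 5242 normalized read counts of *Scn3a*, and WT 1 to WT 5 had 4786, 4547, 5015, 4969 and 4835. The WT libraries were tightly grouped, 4 HT libraries lay above all of them and HT 4 lay below all of them. Means were 4993 ± 1076 for HT and 4830.4 ± 184 for WT (± SD, 5 libraries each), a log2 difference of 0.016 ± 0.14 (SE, 95% interval -0.28 to 0.31) with a limma adjusted p of 1.00. Without HT 4 the groups did not overlap, and the difference was 0.17 ± 0.049 (SE, 95% interval 0.067 to 0.28), or 12.6% (limma unadjusted p = 0.00344, adjusted p = 0.446, exact permutation p = 0.00794, the smallest that 4 against 5 libraries allow). Groups without overlap were found for 2.96% of genes in that setting, 1.75% with HT higher.

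*Scn2a* encodes the channel that carries early excitability in the axons of excitatory neurons and was the most abundant alpha transcript. Its normalized read counts were 9648, 9335, 8962, 5739 and 9139.8 in HT 1 to HT 5 and 8437, 7693, 9047, 8837 and 8005 in WT 1 to WT 5. The groups overlapped, with 3 HT libraries above the highest WT library and HT 4 far below the lowest. The means, 8565 ± 1599.9 for HT and 8404 ± 563 for WT (± SD, 5 libraries each), differed by 0.0055 ± 0.12 (SE, 95% interval -0.26 to 0.27) on the log2 scale (limma adjusted p = 1.00). Without HT 4 the log2 difference was 0.14 ± 0.047 (SE, 95% interval 0.044 to 0.24), or 10.5% (limma unadjusted p = 0.00792, adjusted p = 0.446, exact permutation p = 0.0397).

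*Scn1a*, the channel gene best known from fast-spiking inhibitory neurons, was the lowest of the alpha members per kb. In HT 1 to HT 5 it had 2016, 1781, 2017, 1129 and 1750.0 normalized read counts, and in WT 1 to WT 5 1515, 1472, 1606, 1722 and 1794. HT 1 and HT 3 were the highest of all libraries, HT 2 and HT 5 lay within the WT range and HT 4 below it. Means of 1739 ± 363 for HT and 1622 ± 136 for WT (± SD, 5 libraries each) gave a log2 difference of 0.074 ± 0.14 (SE, 95% interval -0.22 to 0.37), with a limma adjusted p of 1.00. Without HT 4 it was 0.22 ± 0.067 (SE, 95% interval 0.079 to 0.37), or 16.7%, the largest of the 7 members in that setting (limma unadjusted p = 0.00486, adjusted p = 0.446, exact permutation p = 0.0476). An antisense transcript, Gm13630, overlaps *Scn1a* on the other strand, and its mean of 19.9 normalized read counts is small beside the 1680.2 of *Scn1a*.

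*Scn8a*, whose channel comes to dominate mature initial segments and nodes, varied more among WT mice than the clustered genes did. HT 1 to HT 5 had 5461, 4635, 5113, 3037 and 4486 normalized read counts of *Scn8a*, and WT 1 to WT 5 had 5347, 3977, 5438, 4517 and 4241. WT libraries were spread more widely than the HT libraries other than HT 4, with WT 1 and WT 3 at the level of HT 1. Means were 4546 ± 928 for HT and 4704 ± 658 for WT (± SD, 5 libraries each), the log2 difference was -0.066 ± 0.14 (SE, 95% interval -0.38 to 0.25), and the limma adjusted p was 1.00. Leaving out HT 4 turned the sign to 0.073 ± 0.099 (SE, 95% interval -0.15 to 0.29), with an unadjusted limma p of 0.481 and an exact permutation p of 0.540, so no difference of *Scn8a* was detectable in either setting. The interval without HT 4 spans changes from -9.74% to 22.5%.

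Among the beta genes, *Scn3b* encodes the early auxiliary subunit that binds the pore without a disulfide bond. Its normalized read counts were 8775, 8974, 9236, 7089.9 and 9009 in HT 1 to HT 5 and 8411, 8045, 8274, 8666 and 8421 in WT 1 to WT 5. As with *Scn3a*, 4 HT libraries lay above every WT library and HT 4 lay below every WT library. The means of 8617 ± 869 for HT and 8363 ± 227 for WT (± SD, 5 libraries each) differed by 0.037 ± 0.067 (SE, 95% interval -0.11 to 0.18) on the log2 scale, with a limma adjusted p of 1.00. Without HT 4 the difference was 0.11 ± 0.033 (SE, 95% interval 0.036 to 0.18), or 7.61% (limma unadjusted p = 0.00579, adjusted p = 0.446, exact permutation p = 0.0159). The groups did not overlap in that setting, as was the case for 2.96% of all genes tested, 1.75% with HT higher.

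*Scn2b*, a disulfide-linked subunit of mature axons, was the steadiest of the low members. In HT 1 to HT 5 it had 724, 850.0, 715, 799 and 790.2 normalized read counts, and in WT 1 to WT 5 789, 766, 819, 718 and 730.0. The groups overlapped over nearly their whole range, with means of 776 ± 56.2 for HT and 764 ± 41.6 for WT (± SD, 5 libraries each) and a log2 difference of 0.020 ± 0.065 (SE, 95% interval -0.12 to 0.16) (limma adjusted p = 1.00). The interval limits a change of *Scn2b* to between -8.03% and 11.8%, and without HT 4 the difference was 0.0083.

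*Scn4b*, which is known for the resurgent current of Purkinje cells, rested on a mean of 74.9 normalized read counts per library. HT 1 to HT 5 had 68.7, 95.8, 58.5, 92.3 and 73.3 normalized read counts of *Scn4b*, and WT 1 to WT 5 had 85.4, 78.3, 68.2, 82.5 and 46.4. Its spread was wide in both groups, from 46.4 in WT 5 to 95.8 in HT 2. The means were 77.7 ± 15.9 for HT and 72.2 ± 15.8 for WT (± SD, 5 libraries each), the log2 difference was 0.11 ± 0.19 (SE, 95% interval -0.31 to 0.53), and the limma adjusted p was 1.00. Changes from -19.1% to 44.6% lie within the interval, so that at this depth and spread only a large difference of *Scn4b* would have been detectable.

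**Figure D3:**
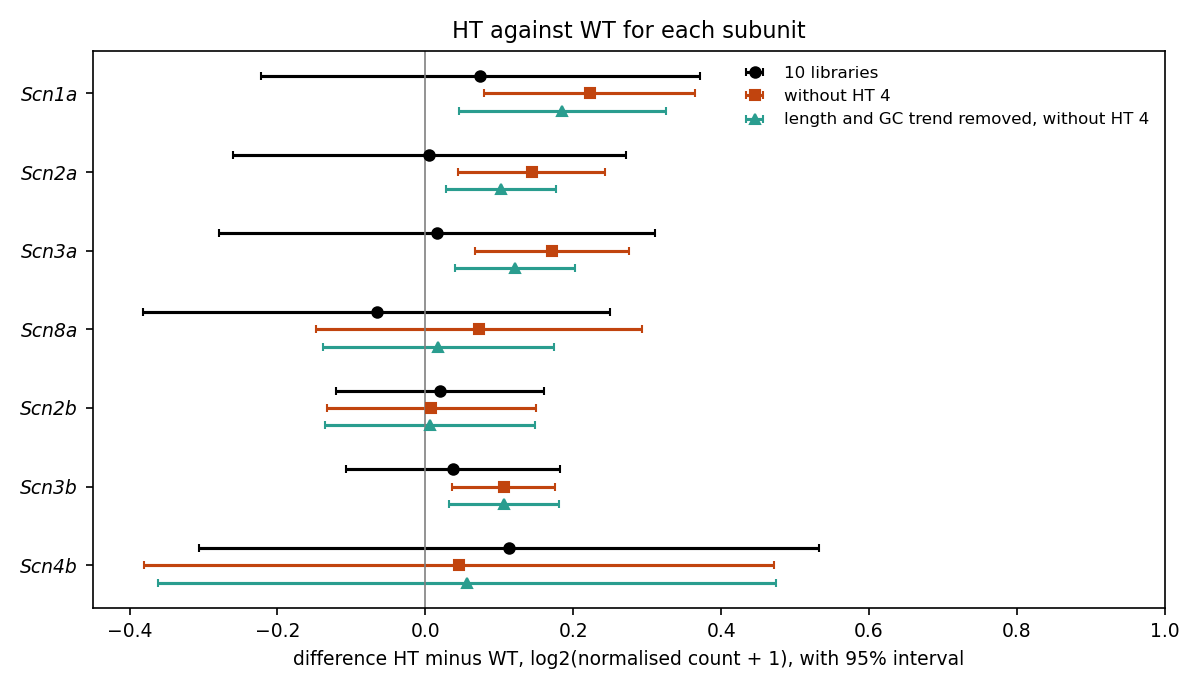
Difference between HT and WT on the log2(normalized count + 1) scale for each member, with 95% intervals, from all 10 libraries (circles), without HT 4 (squares), and without HT 4 after a trend on transcript length and GC content was removed from each library (triangles). With 10 libraries every interval spans 0, and without HT 4 those of *Scn1a*, *Scn2a*, *Scn3a* and *Scn3b* lie above 0 at unadjusted p values.

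The low values of HT 4 in 5 members are described here against its values for other long transcripts. Its normalized read counts were 58.3% to 61.9% of the mean of the other HT libraries for the 4 alpha genes and 78.8% for *Scn3b*, the lowest of 10 libraries in each case. For *Scn2b* and *Scn4b* it had 104% and 125%. The 4 alpha transcripts, of 8386 to 11436 bases, all belong to the longest decile of genes. Their log2 deviations in HT 4, -0.55 to -0.61, were lower than the median of that decile (-0.34), and 14.1% to 19.6% of its genes deviated further down. *Scn3b*, of 4150 bases, deviated by -0.26 in a decile with a median of -0.054. After a trend on length and GC content had been removed from each library, HT 4 still had the lowest value of the 10 libraries for all 4 alpha genes, with deviations of -0.20 to -0.27. For *Scn3b* it was also still the lowest, with a deviation of -0.15. In that fit without HT 4, *Scn1a*, *Scn2a*, *Scn3a* and *Scn3b* were higher by 0.19, 0.10, 0.12 and 0.11 on the log2 scale (limma unadjusted p = 0.0132, 0.0104, 0.00639 and 0.00795, adjusted p = 0.499 to 0.549), against a background of 7.93% of genes at an unadjusted p under 0.05 and 4.72% at such a p and higher in HT.

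Markers of cell types and regions were also at the ends of their range in HT 4. The 8 neuronal markers, led by *Tubb3*, summed to 175005 to 193997 in HT and 178683 to 185146 in WT normalized read counts, with the lowest sum in HT 4, and none of the 8 was at 0 in any library. The sum of 7 forebrain markers, led by *Neurod6*, was 13667 in HT 4 and 17525 to 20547 in the other 9 libraries. That of 7 of 8 cerebellar markers, led by *Zic1*, was 10802 in HT 4 and 6359.8 to 9803 in the others. These rankings are of sums, in which the most abundant genes weigh most. The sum of HT 4 was the highest for the 7 oligodendrocyte lineage markers, led by *Mbp* (11843 to 16948 in HT and 12049.8 to 14052 in WT). It was also the highest for the 6 astrocyte and radial glia markers, led by *Fabp7* (43677 to 50281 in HT and 40949 to 47928 in WT). For the 5 endothelial markers, led by *Kdr* (4599 to 5318 in HT and 4915 to 5208 in WT), the sum of HT 4 was the highest, but not by far. It was the lowest for the 6 GABAergic markers, led by *Gad1* (14727 to 16866 in HT and 14785 to 15507 in WT). It lay within the range of the others for the microglial list, led by *Csf1r* (1122 to 1693 in HT and 1242 to 2231 in WT), the erythroid list, led by *Hbb-bs* (5957 to 13723 in HT and 4523 to 13875 in WT), and the hindbrain and spinal list, led by *Slc6a5* (524 to 2119 in HT and 148 to 1146 in WT), in which *Hoxb4* was listed at 0 in some library. For the 8 striatal markers the sums were 5894 to 6925 in HT and 6027 to 6294 in WT, with HT 4 inside the range of the others, and 1 of the 8 had an unadjusted limma p under 0.05 between HT and WT. It was *Tac1*, named after its value was seen, which was higher in HT (log2 difference 0.34 ± 0.092 (SE), limma unadjusted p = 0.00252, adjusted p = 1.00). No marker of the other lists had such a p. The part of cell and region makeup in the values of HT 4 was not tested, and in whole tissue fewer cells of a type and less RNA per cell cannot be told apart. The deviations of each member are drawn beside the median of the longest genes.

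**Figure D4:**
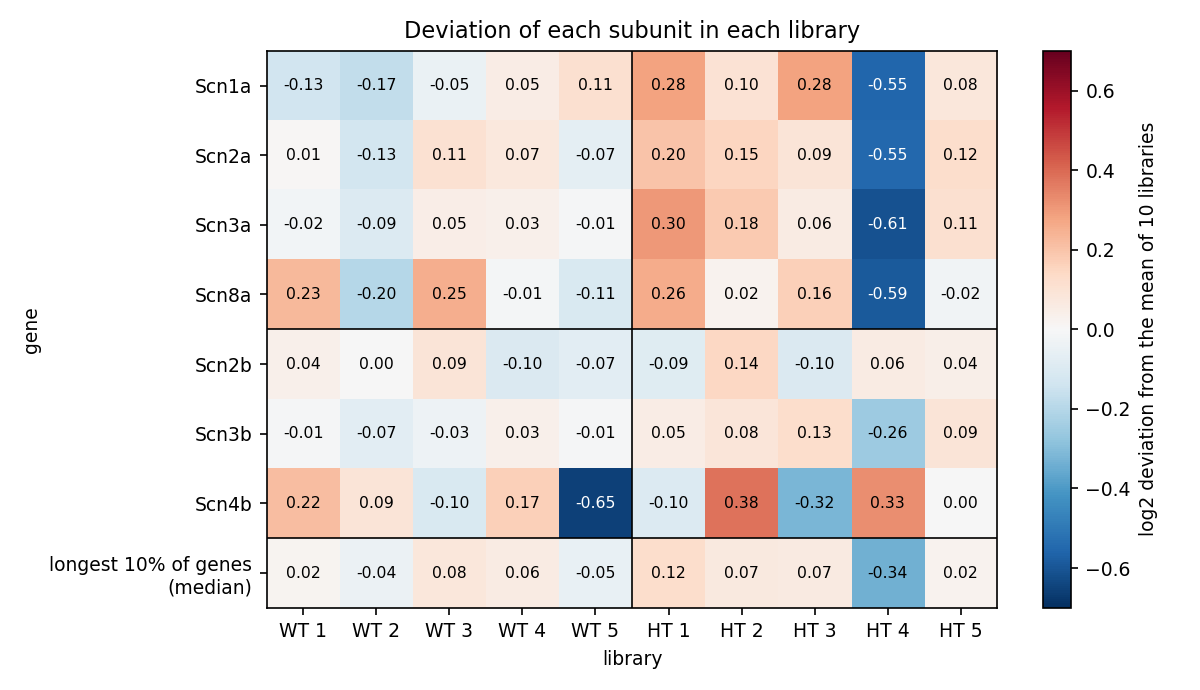
Deviation of each member (rows) from its mean over the 10 libraries, in log2 units, in each library (columns), with the median deviation of the longest decile of genes in the last row. The column of HT 4 is low for the 4 alpha genes (-0.55 to -0.61) and *Scn3b* (-0.26), with the longest genes at -0.34, and *Scn4b* varies most outside it.

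Ratios within a library take out its scaling. The log2 ratio of *Scn2a* to *Scn3a* counts, the balance of the 2 early alpha genes, was 0.686, 0.762, 0.828, 0.854 and 0.802 in HT 1 to HT 5 and 0.818, 0.759, 0.851, 0.831 and 0.727 in WT 1 to WT 5. It averaged 1.72-fold in HT and 1.74-fold in WT and no difference between groups was detected (exact permutation p = 0.786). *Scn8a* over *Scn2a*, a ratio that compares the later with the early axonal gene, was -0.92 ± 0.10 in HT and -0.85 ± 0.14 in WT on the log2 scale (SD, n = 5 each, exact permutation p = 0.365). *Scn1a* over *Scn2a* was -2.31 ± 0.10 in HT and -2.37 ± 0.13 in WT (exact permutation p = 0.341). The sum of the beta members over that of the alpha members, per kb, ranged from -0.014 to 0.19 in WT on the log2 scale and averaged 1.07-fold. In HT 4 it reached 0.47, the highest of all libraries, and no difference between groups was detected (exact permutation p = 0.786, without HT 4 p = 0.460).

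The partners of the channel gave no call either. Of 45 further genes of the sodium channel pathway, 43 were in the table and tested, of which 26 were higher and 17 lower in HT, with 0 at an adjusted limma p under 0.05 and 0 at an unadjusted p under 0.05 (background 3.41%). Their median log2 difference was 0.014, beside 0.020 for the 7 members and -0.0074 for all genes tested. By role, 4 of 6 other channel genes, 3 of 4 fibroblast growth factor homologous factors, which bind the tail of the alpha subunit, 6 of 10 scaffold and adhesion genes of the axon initial segment and node, 4 of 13 regulators, 3 of 4 genes of the sodium leak channel and 6 of 6 genes of the sodium and potassium pump were higher in HT. Among the 5 genes with the highest counts were *Calm2* and *Calm3*, which encode calmodulin, a protein that binds the channel tail, and the spectrin *Sptan1* of the submembrane skeleton. *Calm2* had 29332 ± 1914 normalized read counts in HT and 29048 ± 1749 in WT libraries, *Calm3* 34833 ± 3144 and 33888 ± 1217, and *Sptan1* 38218 ± 1594 and 36943 ± 1288. Their log2 differences were 0.014, 0.036 and 0.049.

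Without HT 4, 8.4% of all genes had an unadjusted limma p under 0.05, and 4.69% had such a p and were higher in HT. Of the 43 pathway genes, 8 (18.6%) had such a p, all higher in HT, and 0 passed the adjustment (adjusted p from 0.446 to 0.583). Named after their values were seen, they were the growth factor homologous factors *Fgf13* and *Fgf14*, the ankyrin *Ank2*, the spectrin *Sptan1*, the initial segment and node adhesion genes *Nfasc* and *Tnr*, the leak channel subunit *Unc80* and the alpha gene *Scn9a*. Their log2 differences without HT 4 ranged from 0.071 for *Sptan1* to 0.25 for *Unc80*. Once the trend on length and GC content was also removed, 5 of 43 (11.6%) were at such a p, all higher in HT. The background there was 7.93% of all genes, and 4.72% at such a p and higher in HT. The 3 no longer there were *Ank2*, *Sptan1* and *Scn9a*, with log2 differences of 0.023, 0.047 and 0.092 (limma unadjusted p = 0.659, 0.194 and 0.127), against 0.099, 0.071 and 0.14 before. Outside the rule for named genes and with their values seen, 2 further genes are given. *Ank3*, which anchors the channels at the initial segment, had a log2 difference of -0.039 with all libraries and 0.13 without HT 4 (limma unadjusted p = 0.0694). *Rest*, the repressor of neuronal genes named above, had 341 ± 35.2 in HT and 358 ± 45.4 in WT normalized read counts (limma adjusted p = 1.00).

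Correlations between members are given as a description over libraries that share their scaling and a length trend. The Pearson correlation of log2 values over the 10 libraries was 0.74 to 0.98 for the 6 pairs of alpha genes (Spearman 0.45 to 0.98), highest for *Scn2a* with *Scn3a*. The values were lower without HT 4. Over the other 9 libraries the alpha pairs ranged from 0.29 to 0.89, with *Scn2a* and *Scn3a* at 0.89 (Spearman 0.97). *Scn3b* had correlations of 0.79 with *Scn1a*, 0.70 with *Scn2a*, 0.60 with *Scn3a* and 0.24 with *Scn8a* over these 9. With the 2 libraries farthest from the median left out, the alpha pairs ranged from -0.045 for *Scn1a* with *Scn8a* to 0.85 for *Scn2a* with *Scn3a*. With the length and GC trend removed and HT 4 left out, the pairs among *Scn1a*, *Scn2a* and *Scn3a* had 0.51 to 0.76, whereas *Scn8a* had -0.00060 with *Scn1a*, 0.0058 with *Scn3a* and 0.30 with *Scn2a*. The median over all 21 pairs was 0.59 with HT 4 and 0.25 without it. Within WT, the coefficient of variation was 2.72% for *Scn3b* and 3.82% for *Scn3a*, the steadiest members, 5.44% for *Scn2b*, 6.70% for *Scn2a*, 8.37% for *Scn1a*, 14.0% for *Scn8a* and 21.9% for *Scn4b*. In HT it was 18.7% to 21.6% for the alpha genes with HT 4 and 3.17% to 9.07% without it.

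The genes whose pattern over the libraries was most like that of each member were taken from 12820 genes with a mean of at least 100, by the lower of the Pearson correlations over 10 libraries and over 9 without HT 4. The values describe few libraries that share their scaling. For *Scn2a* they were *Opa1* (0.98), *Rc3h1* (0.98) and *Sbf2* (0.98), for *Scn3a* *Has3* (0.98), *Wdr47* (0.97) and *Zdhhc21* (0.96), for *Scn1a* *Grik2* (0.95), *Coa5* (0.95) and *Phf20* (0.94) and for *Scn8a* *Chd6* (0.98), *Parp1* (0.96) and *Setd1b* (0.95). For the beta genes they were *Trank1* (0.93), *Rnf152* (0.92) and *Tmx4* (0.92) for *Scn3b*, *Prr18* (0.90), *Anxa7* (0.88) and *Bbs5* (0.86) for *Scn2b* and *Abhd5* (0.90), *Gja4* (0.89) and *Hey1* (0.86) for *Scn4b*. Each of these 21 genes was named for 1 member.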

How the data were processed

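The 10 libraries were made with a stranded poly-A kit and sequenced as paired-end reads. Per the methods of the study, the authors estimated reads per transcript with Salmon 1.1.0 on GRCm38 with a correction for GC bias and summed them per gene with tximport. The deposited signal is a normalized read count, the estimated reads of a gene divided by the library's DESeq2 1.30.1 size factor, so the values are not whole and no count test was used. Which annotation was used, and how low genes were filtered, is not given in the sources used here. One value step, the worth of 1 read, was estimated at 0.899 to 1.13, and 11.8% to 36.6% of low values were whole multiples of it within 0.05. The lowest of these shares, in HT 3, is only slightly above what evenly spread values would give. The step, and the read totals drawn from it, are therefore rough estimates. Totals were 27.2 M to 29.03 M normalized counts per library.

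Groups and replicate numbers came from the sample labels. Values were analyzed as log2(value + 1), a scale that understates changes of low genes, with limma 3.58.1 in R 4.3.3 (limma-trend, robust, two-sided, Benjamini-Hochberg adjustment over 17020 genes with a mean of at least 10, threshold 0.05). For 1424 genes the mean was lower and no test was made. Exact permutation tests were two-sided and enumerated all assignments of libraries to groups (Python 3.11.15), with a smallest possible p of 0.00794. Symbols, positions and lengths came from GENCODE M21, which matched 18431 of 18444 identifiers. On simulated data of 5 against 5 libraries, the limma steps called 97 of 100 genes changed 2-fold, 85 of 100 changed 1.5-fold and 17 of 16820 unchanged genes. The simulated spread was taken from the libraries other than HT 4, around group means that included HT 4, and held no length trend. These shares therefore do not apply to the fit with all 10 libraries. There *Arid1b*, with a log2 difference of -0.68 and groups that did not overlap, was not called (limma adjusted p = 0.390). P values measure the spread between these mice. Litters are not given in the labels.

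The members and all lists were chosen with earlier results of these data known. Genes named are the members, *Arid1b*, pathway genes with an unadjusted p under 0.05 or with groups that do not overlap, the 5 most abundant pathway genes, the 3 genes most like each member, and the leading gene of each marker list. Alternatives were other pseudocounts (0.5 and 4), other minimum means (none and 100.0), quantile normalization, array weights, the replicate number as a block, each library left out, removal of a trend on transcript length and GC content, and other lengths. Some genes and sequences, and the values that need them, are not reported here.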

Additional observations from a re-analysis of the deposited data

Results flagged for a closer look

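In groups of 5 libraries, a library was singled out when its distance from the nearest other library, divided by the range of the group, exceeded Dixon's critical value of 0.710. This was checked in 38 groups of values, in which chance alone gives about 1.9 such cases, and 3 were found, all with HT 4 as the distant library. The *Scn2a* normalized read count of HT 4 was 5739, and the nearest HT library had 8962. For *Scn3b* the value of HT 4 was 7089.9, with the nearest HT library at 8775. For *Arid1b* it was 1505, with the nearest HT library at 2142. The WT libraries gave no such case.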

How the results depend on the processing

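The log2 differences of the 7 members stayed on the same side of the adjusted threshold under every alternative run, and none was called. Directions were not stable, except those of *Scn1a* and *Scn3b*. *Scn2a* was -0.0028 with quantile normalization, and *Scn8a* was 0.012 with array weights and 0.018 with the length and GC trend removed and HT 4 left out. With each library left out in turn, the log2 differences ranged from 0.013 to 0.22 for *Scn1a*, from -0.044 to 0.14 for *Scn2a*, from -0.058 to 0.17 for *Scn3a*, from -0.14 to 0.073 for *Scn8a*, from -0.014 to 0.048 for *Scn2b*, from 0.010 to 0.11 for *Scn3b* and from -0.035 to 0.21 for *Scn4b*. The upper end came without HT 4 for the alpha genes and *Scn3b*, without HT 3 for *Scn2b* and *Scn4b*. The cause was not tested. Differences in share (HT minus WT, percentage points) ranged over the same omissions from -0.084 to 0.558 for *Scn2a*, from -0.449 to 0.205 for *Scn2b*, from -0.299 to 0.476 for *Scn3b*, from -0.027 to 0.094 for *Scn4b*, from 0.249 to 0.806 for *Scn1a* (highest without WT 5, exact permutation p = 0.0556), from 0.054 to 0.570 for *Scn3a* and from -1.27 to -0.351 for *Scn8a*. The log2 ratio of *Scn2a* to *Scn3a* differed by -0.028 to 0.014 and that of the beta to the alpha sum by -0.045 to 0.093. The median correlation between members was 0.246 without HT 4.

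Among all genes, 2 were called with array weights, 1 with the length and GC trend removed, 2 with that trend removed and HT 4 left out, and 0 to 2 with 1 library left out, the 2 without HT 4. With the replicate number as a block (replicate block), 0 genes were called (558 at an unadjusted p under 0.05) and each member had a limma adjusted p of 1.00. HT and WT libraries of the same number had correlations of deviations of -0.104 to 0.0926. In the main fits the numbers were not taken as pairs, although 4 of 5 HT libraries, all but HT 4, were most like the WT library of their own number. Whether a number marks something shared, such as a batch, was not tested. The fits without HT 4 take no account of it. Of the values recomputed for the comparisons, 292 kept their direction and side of the threshold or, for counts, stayed near the reported count, 36 changed sign and 5 moved. For *Arid1b* and the counts at an unadjusted p, 45 stayed, 8 moved and 4, all of *Arid1b*, passed the adjusted threshold. With 5 mice per group, the interval of each member bounds what could be seen, and it is widest for *Scn4b*, which rests on few reads.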
